A study of Rattus norvegicus with 2 samples.

Results

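The endothelin and nitric oxide pathways, which set vascular tone in opposite directions, were followed in rat lung through 10 genes listed by name; the rule that takes their probe sets uses no measured value. Probe sets were taken when the platform annotation gave them exactly 1 gene symbol and that symbol was in the list. This gave 10 probe sets of 8 genes, of 31042 non-control probe sets in all: *Gucy1a1* and *Gucy1b1* had 2 probe sets each and the other 6 genes had 1 each. The 2 endothelin receptor genes, *Ednra* and *Ednrb*, had no probe set under this rule and were not analysed here. Total RNA from rat lung had been measured on 2 Affymetrix Rat Genome 230 2.0 arrays, whose probe sets each combine several short probes for a transcript, to ask how reproducible global expression is. Each array was prepared by a different experimenter, called experimenter 1 and experimenter 2 by the numbers in the sample titles. Both groups were rat lung with biotin-labelled RNA, and the labels name no strain, age, sex, genotype or treatment, nor whether the experimenters shared a lung or an RNA extract. Because each experimenter has a single array, replicate error cannot be estimated: differences are described by size alone, with no test.

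Endothelin-1 is a peptide made mainly by endothelial cells as a larger precursor, which endothelin-converting enzyme cuts into the active form. It constricts smooth muscle through the type A receptor, while the type B receptor on endothelium clears the peptide and stimulates release of nitric oxide. Nitric oxide is made from arginine by neuronal, inducible and endothelial synthases, and activates soluble guanylyl cyclase in smooth muscle. The cyclase makes cyclic GMP, which relaxes the vessel until phosphodiesterase 5 breaks it down, and this last enzyme is the target of sildenafil in pulmonary hypertension.

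Promoter sequence is shown for the ligand, its converting enzyme, the endothelial synthase and a cyclase subunit, to set regulatory sequence beside the levels that follow. The RefSeq table of assembly GRCr8 holds 250 bases before and 50 after each gene's start site. By gene symbol it matched 9 of the 10 genes, all except *Nos2*. The bases from -250 to -91 are printed for the 4 measured genes in which this stretch lay outside the gene's RefSeq extent: *Edn1* at chr17:22666778-22666937 (minus strand), *Ece1* at chr5:155360781-155360940 (plus strand), *Nos3* at chr4:11706672-11706831 (minus strand) and *Gucy1b1* at chr2:169697078-169697237 (minus strand). Capitals mark matches, on either strand, to the TATA box (searched as TATAAA), the GATA factor motif (searched as GATAA), an AP-1 motif (searched as TGACTNA), the GC box (searched as GGGCGG) and the CCAAT box (searched by those letters).
Edn1: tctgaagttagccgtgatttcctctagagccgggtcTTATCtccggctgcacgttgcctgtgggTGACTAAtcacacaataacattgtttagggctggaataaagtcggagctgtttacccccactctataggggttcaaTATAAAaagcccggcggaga
Ece1: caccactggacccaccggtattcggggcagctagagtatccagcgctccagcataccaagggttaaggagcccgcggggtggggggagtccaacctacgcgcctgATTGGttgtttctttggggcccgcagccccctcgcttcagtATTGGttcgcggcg
Nos3: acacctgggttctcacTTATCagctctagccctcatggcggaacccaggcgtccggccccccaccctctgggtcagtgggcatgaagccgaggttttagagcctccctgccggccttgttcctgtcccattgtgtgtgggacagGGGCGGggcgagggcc
Gucy1b1: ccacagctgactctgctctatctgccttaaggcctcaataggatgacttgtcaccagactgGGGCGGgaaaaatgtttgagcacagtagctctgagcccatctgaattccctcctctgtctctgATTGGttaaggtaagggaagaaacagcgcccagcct

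Counted from the RefSeq start site, the *Edn1* stretch held a TATAAA match at -110 to -105 and an AP-1 match at -186 to -180. On the opposite strand it held a GATA match at -214 to -210. Of 27457 rat promoters cut to the same 160 bases, 8.03% held TATAAA, 7.55% held TGACTNA and 16.8% held GATAA. *Ece1* had no match to these motifs and had 2 CCAAT matches on the opposite strand, from -145 to -141 and from -104 to -100, a motif present in 23.4% of the promoters. *Nos3* had a GATA match on the opposite strand at -234 to -230 and a GC box, present in 19.2% of promoters, at -106 to -101. *Gucy1b1* had a GC box at -189 to -184 and a CCAAT match on the opposite strand at -126 to -122. None of these matches overlapped another. They describe the letters in this window, and binding of any factor there was not measured. The bases between -91 and the start site were not searched. A motif there would be missed, so neither the matches nor their absence describes the sequence next to the start site. TATAAA was matched by its letters, without regard to its distance from the start site.

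Levels are log2 values on the authors' scale, and the percentile is the percentage of an array's non-control probe sets at or below a level. Brightness also depends on the probes, so levels of different probe sets do not order their transcripts. Differences are experimenter 2 minus experimenter 1. The array medians were 6.32 for experimenter 1 and 6.28 for experimenter 2. Of the 31042 non-control probe sets, 18318 were lower for experimenter 2 and 12724 (41.0%) higher. This is the background for each count of markers and of related genes below. It is not matched to them, because it takes every probe set at any level and those genes were each taken by their brightest probe set.

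The endothelin ligand gene *Edn1* (probe set 1369519_at, Entrez gene 24323) measured 7.86 for experimenter 1 and 7.82 for experimenter 2. Both values lay above the array medians, at percentiles 70.2 and 70.2, and the difference of -0.041 took either sign depending on the scaling, being 0.0157 after removal of a loess trend. *Ece1* (1367801_at, 94204), which encodes endothelin-converting enzyme, measured 10.83 and 10.60, at percentiles 96.8 and 96.1. Its level was high on both arrays, and it differed by -0.24, which is 1.18-fold.

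Of the 3 nitric oxide synthase genes, *Nos3* and *Nos2* were higher for experimenter 2 and *Nos1* was lower. *Nos3* (1371166_at, 24600), the endothelial synthase, measured 4.95 and 5.33, at percentiles 32.3 and 37.7. This probe set lay under the median on both arrays, and its difference of 0.38, or 1.30-fold, was the highest of the 10. Each marker gene, here and below, was taken by its brightest probe set, a choice that favours high levels. The fixed endothelial markers had 9 of 10 genes measured, and 7 of them were lower for experimenter 2. All 9 had mean levels no lower than the median of 6.31 over all probe sets. Their mean level was 11.09 for experimenter 1 and 10.95 for experimenter 2, their median difference was -0.17, and the range ran from -0.55 for the receptor gene *Tie1* to 0.28 for the sialomucin gene *Emcn*. The part of these markers in the *Nos3* difference was not tested. In lung tissue, fewer cells of a type and less RNA per cell cannot be told apart.

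*Nos2* (1371289_at, 24599), the inducible synthase known from activated macrophages, measured 6.89 and 7.19, at percentiles 57.2 and 61.7, a difference of 0.30. Of the macrophage markers, 5 of 6 were measured and 4 were lower for experimenter 2, with a mean level of 10.64 and 10.56 and a median difference of -0.15. Neutrophil markers, with 4 of 5 measured, had 3 lower, mean levels of 8.14 and 8.01 and a median of -0.12. A further probe set, 1387667_at, is annotated to both *Nos2* and the pseudogene *Nos2-ps1* and was therefore left out. It measured 3.30 and 3.002, at percentiles 8.07 and 4.76, and its difference of -0.30 had the opposite sign to that of the *Nos2* probe set.

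*Nos1* (1369015_at, 24598), the neuronal synthase, measured 3.70 and 3.35, at percentiles 14.0 and 9.76. It was the dimmest of the 10 probe sets, and no detection calls were used here, so its difference of -0.34 lies where a background limit is unknown. Among the peripheral nerve markers, 5 of 7 were measured and 4 were lower for experimenter 2, with mean levels of 5.51 and 5.14 and a median difference of -0.60. The Schwann cell factor *Sox10* and the neurofilament chain *Nefm* differed by -0.66 each, and the light chain *Nefl* by 0.37. Of the 5, 3 were at least 1.5-fold apart, where 4.35% of all non-control probe sets were. Only 1 of the 5, *Mbp*, had a mean level at or above the median. *Mbp* measured 9.11 and 8.51, a difference of -0.60. *Nefm* measured 3.85 and 3.19 and *Nefl* 2.91 and 3.28, also where a background limit is unknown. The part of nerve tissue in the *Nos1* difference was not tested.

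**Figure D1:**
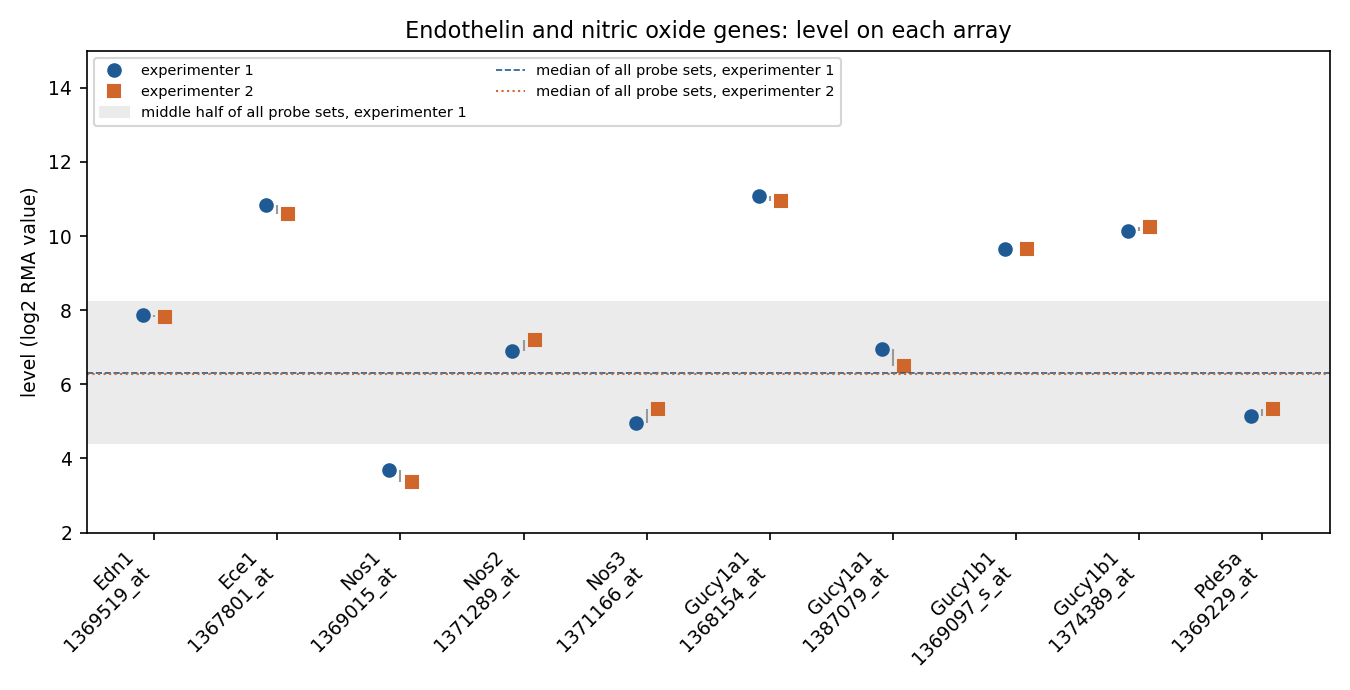
Level (log2 RMA value) of each of the 10 probe sets on the array of experimenter 1 (circles) and of experimenter 2 (squares); the grey band spans the lower to the upper quartile of all non-control probe sets for experimenter 1, and the dashed and dotted lines are the array medians. *Nos1*, *Nos3* and *Pde5a* lie under the medians on both arrays, and the 2 *Gucy1a1* probe sets lie 4.14 and 4.46 apart.

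The subunits of soluble guanylyl cyclase, the nitric oxide receptor, were measured by 4 probe sets, of which 3 had percentiles between 90.5 and 97.6 on the arrays. *Gucy1a1* (Entrez gene 497757), the alpha subunit, measured 11.09 and 10.94 by probe set 1368154_at, at percentiles 97.6 and 97.2. Its other probe set, 1387079_at, measured 6.95 and 6.48, at percentiles 58.1 and 52.5. Both were lower for experimenter 2, by -0.15 and by -0.47, and the second of these, 1.39-fold, was the largest difference among the 10 probe sets.

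These probe sets of one gene stood 4.14 apart in level for experimenter 1 and 4.46 for experimenter 2. Over the 4525 genes with at least 2 probe sets, the gap in mean level between the brightest and the second had a median of 1.4999 and quartiles of 0.64 and 2.77, and 90.5% of genes had a gap no wider than that of *Gucy1a1* (4.30). The annotation ties the brighter probe set to a RefSeq mRNA and the dimmer one to another mRNA record. *Gucy1b1* (25202), the beta subunit, measured 10.14 and 10.25 by probe set 1374389_at and 9.66 and 9.65 by 1369097_s_at, whose suffix marks probes shared between transcripts. The former is designed from an expressed sequence tag and differed by 0.11, the latter by -0.0058, a sign that turned under each of the 3 scalings tried. The *Gucy1b1* probe sets stood 0.48 apart in level for experimenter 1 and 0.60 for experimenter 2, and 21.2% of the 4525 genes had a gap in mean level no wider than theirs (0.54).

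*Pde5a* (1369229_at, 171115), the phosphodiesterase that ends the cyclic GMP signal, measured 5.13 and 5.34, at percentiles 34.6 and 37.9. It lay under the median on both arrays and differed by 0.21. Smooth muscle and pericyte markers, all 10 measured, were lower for experimenter 2 in 9 of 10, with mean levels of 8.43 and 8.24 and a median difference of -0.13, from -0.41 for the myosin heavy chain gene *Myh11* to 0.014 for *Rgs5*. The part of smooth muscle in the differences of *Pde5a* and the cyclase subunits was not tested.

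Of the 10 probe sets, 0 were 2-fold apart between the arrays, where 0.37% of all non-control probe sets were, and 0 were 1.5-fold apart, where 4.35% were. For 10 probe sets, counts of 0 are near those shares. For experimenter 2, 4 of 10 were higher, against 41.0% of all probe sets. The members' differences ran from -0.47 to 0.38, with -0.023 as their median and 0.28 as their SD across probe sets. Over all probe sets the median was -0.052 and the SD was 0.28, so the members spread about as widely as the rest of the array. When all probe sets were ordered by mean level and put in 10 groups of equal size, each of the 10 members lay inside the central 95% of differences of its group. *Gucy1a1* by 1387079_at came nearest to its lower bound, at -0.47 against -0.62, and *Ece1* lay at -0.24 against -0.41. *Nos3* lay at 0.38 against an upper bound of 0.61.

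**Figure D2:**
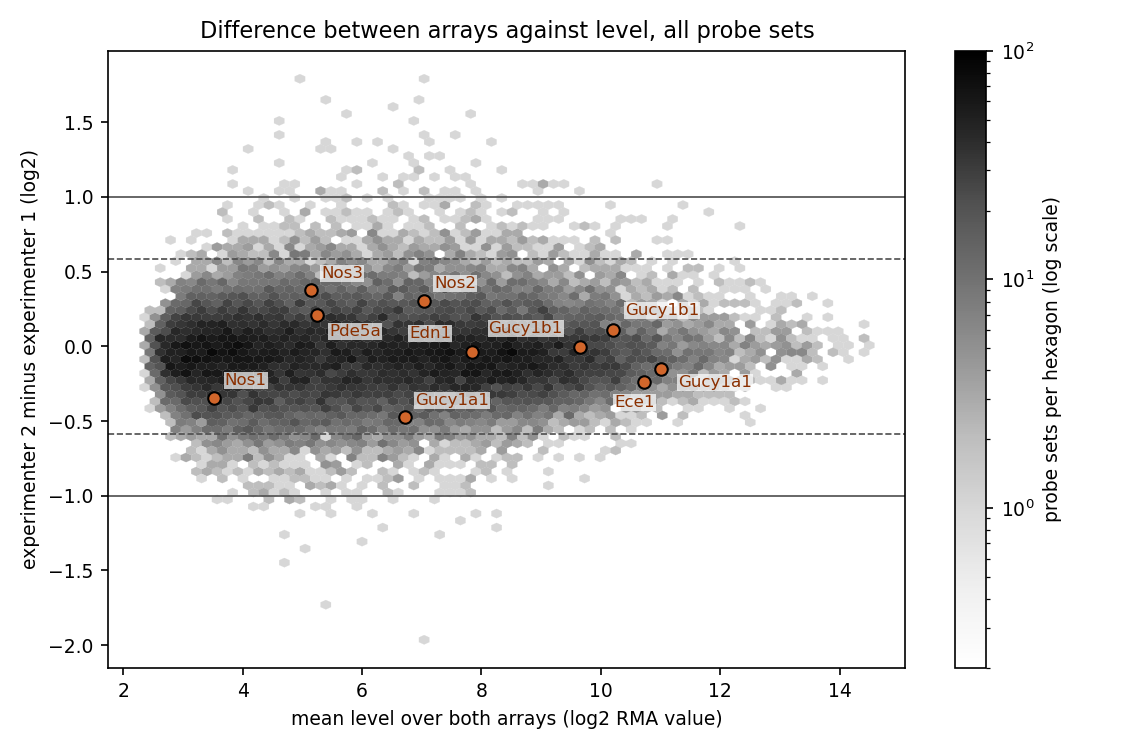
Difference between the arrays (log2, experimenter 2 minus experimenter 1) against mean level over both arrays, with all 31042 non-control probe sets as grey hexagons and the 10 probe sets as labelled points. Dashed lines mark 1.5-fold and solid lines 2-fold; the labelled points lie between the dashed lines.

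The sign of the smallest differences depended on the scaling of the arrays. Median centring raised each difference by 0.034, and loess and quantile normalization raised those of the members by 0.015 to 0.066. The directions of *Ece1*, *Nos1*, *Nos2*, *Nos3*, *Pde5a*, both *Gucy1a1* probe sets and *Gucy1b1* by 1374389_at were the same under the 3 alternatives. As a measure of RNA length, the level of the 3' control minus that of the 5' control for beta-actin (*Actb*) was 2.15 for experimenter 1 and 2.71 for experimenter 2 and is greater the shorter the labelled RNA; for *Hk1*, a hexokinase, it was 1.13 and 1.36, and for *Gapdh*, a glycolytic enzyme, 0.30 and 0.26. Its part in the members' differences was not tested.

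**Figure D3:**
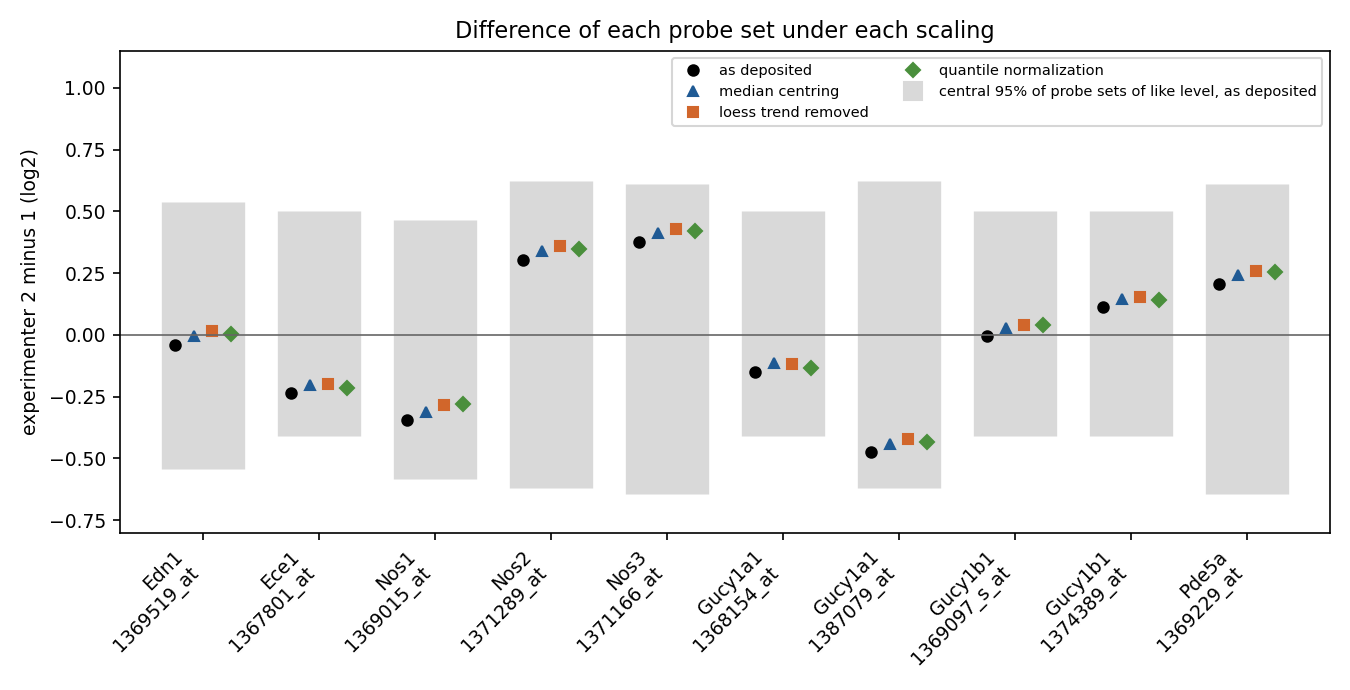
Difference (log2, experimenter 2 minus experimenter 1) of each of the 10 probe sets as deposited and under median centring, loess and quantile normalization; grey bars span the central 95% of differences, as deposited, of all probe sets in the same of 10 groups by mean level. The 3 alternatives shift each point slightly upward, and *Edn1* and *Gucy1b1* by 1369097_s_at cross 0.

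Related genes of both pathways were taken from 8 lists of 62 genes, of which 54 were measured, each by its brightest probe set. Of these, 23 were higher and 31 lower for experimenter 2, with a median difference of -0.040. At least 1.5-fold apart were 2, and 0 were 2-fold apart. Over all non-control probe sets, 41.0% were higher for experimenter 2, 4.35% were 1.5-fold apart and 0.37% were 2-fold apart. The counts over the 54 genes lie near these shares, which are not matched to the genes in level.

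Beyond *Edn1* and *Ece1*, 4 of 5 endothelin genes were measured and 3 were lower for experimenter 2. *Mme*, neprilysin, which degrades endothelin, was the brightest at 9.03 and 8.82. *Ece2*, a second converting enzyme, had the lowest difference, -0.33, and the ligand gene *Edn2* the highest, 0.048. Genes that carry the endothelin receptor signal, G proteins, phospholipase C, calcium channels and the RhoA pathway, were all 11 measured and 9 were lower, with a median of -0.11. The range ran from -0.41 for the cation channel *Trpc6* to 0.12 for the phospholipase *Plcb3*, and the brightest was *Mylk*, myosin light chain kinase, at 12.35 and 12.34.

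Regulators of nitric oxide synthase had 7 of 10 genes measured, 4 higher and 3 lower, all 7 at or above the median level. *Cav1*, caveolin-1, which binds and inhibits the endothelial synthase, was the brightest at 12.90 and 13.05. *Nos1ap*, an adaptor of the neuronal synthase, differed most upward, by 0.33, and *Nosip* most downward, by -0.11. Of the 6 arginine genes, all measured, 3 were higher. *Arg2*, the mitochondrial arginase that competes for arginine, measured 4.68 and 5.22, a difference of 0.54 at a level under the median, while the transporter *Slc7a2* differed by -0.22 and *Ass1*, argininosuccinate synthase, was the brightest at 8.79 and 8.68. For tetrahydrobiopterin, the synthase cofactor, 4 of 6 genes were measured. *Gch1*, the rate-limiting enzyme of its synthesis, measured 7.91 and 7.53, a difference of -0.38, and its feedback regulator *Gchfr* 7.31 and 7.56, a difference of 0.25. *Qdpr*, which recycles the cofactor, was the brightest at 8.04 and 8.06.

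Other cyclase subunit genes and the natriuretic peptide and receptor genes, all 8 measured, were lower for experimenter 2 in 6. The cyclase subunit *Gucy1a2* differed by -0.38 and the natriuretic peptide clearance receptor *Npr3* by 0.29, and *Npr1*, the receptor of atrial natriuretic peptide, was the brightest at 9.40 and 9.13. Of 6 cyclic GMP targets measured, 3 were higher. *Vasp*, a substrate of the cyclic GMP-dependent kinase, was the brightest at 10.35 and 10.10, and *Irag1*, which couples that kinase to the calcium store, had the lowest difference, -0.30. *Ppp1r12a*, the targeting subunit of myosin phosphatase, differed by 0.78 by its brightest probe set (1376662_at). Its other 3 probe sets differed by -0.18, -0.61 and -0.19, so the brightest went against the rest. Among the other cyclic nucleotide phosphodiesterases, 5 of 8 measured genes were higher. *Pde3b* measured 5.93 and 6.66, a difference of 0.74 by its single probe set, *Pde3a* differed by -0.53, and *Pde2a*, which cyclic GMP stimulates, was the brightest at 8.15 and 8.34.

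**Figure D4:**
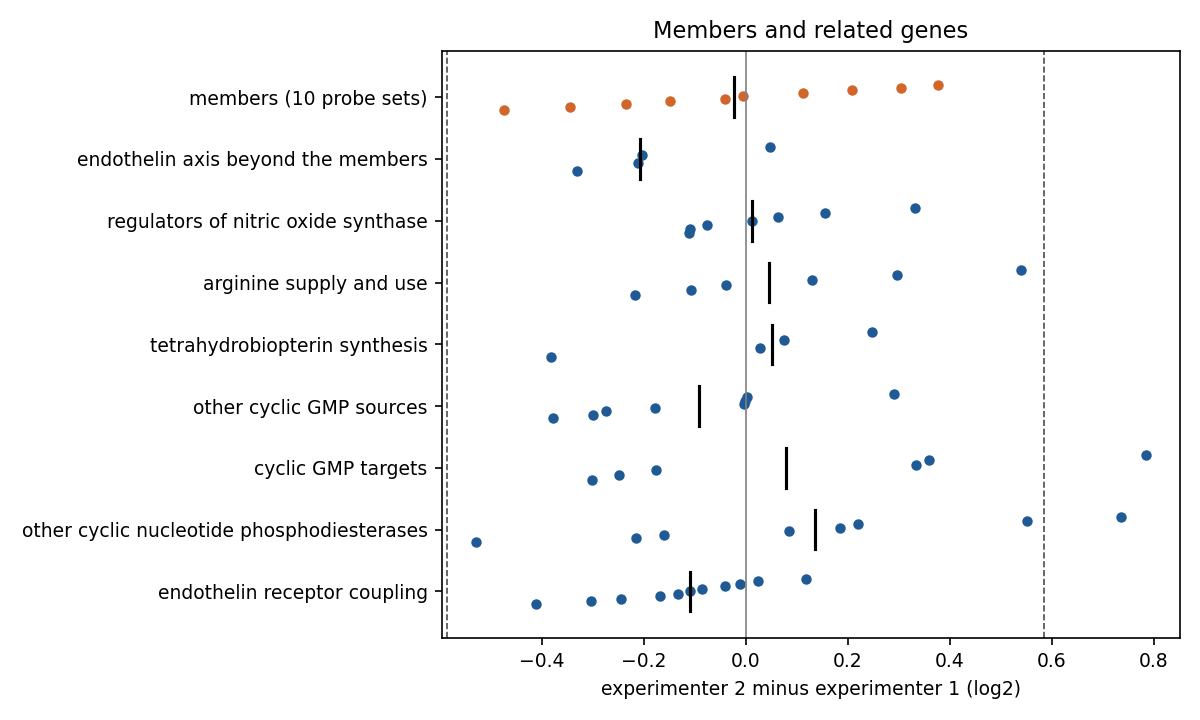
Differences (log2, experimenter 2 minus experimenter 1) of the 10 member probe sets and of the genes in each of the 8 related lists, 1 point per probe set or gene, with black bars at the medians and dashed lines at 1.5-fold. *Ppp1r12a* (0.78) and *Pde3b* (0.74) are the 2 points past a dashed line.

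The tissue label was met by the lung epithelial markers, of which all 6 were measured with means at or above the median and a mean level of 12.62 and 12.68. Cardiac muscle markers, 5 of 6 measured, had mean levels of 4.43 and 4.15, with 0 of the 5 at or above the median. For experimenter 2, 4 of these 5 were lower, with a median difference of -0.30. The range ran from -0.67 for *Tnni3* to 0.065 for *Tnnt2*.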

How the data were processed

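Total RNA of rat lung had been extracted on silica columns and labelled with biotin, per the labels' protocols. The deposited values are log2 values made by the authors with RMA, per the submitters' processing notes, which corrects background, forces a common distribution on the arrays and summarises each probe set. Which version of RMA ran, and on which arrays together, is not given in the sources used here; base 2 was taken from the range of the values. The 57 control probe sets were kept apart. RMA gives no detection calls, and its common distribution hides a difference in total RNA; the number of arrays limits the precision.

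Members were matched by annotation symbol, and related genes by Entrez identifier through the RefSeq table of GRCr8. The members, lists and thresholds were chosen with earlier results of these data known. Every member was named, and of each related list the genes with the highest and lowest difference and with the highest mean. Alternatives were median centring, loess (fraction 0.3), quantile normalization, a filter on level and other probe set choices. No level was filtered otherwise. Python 3.11.15, numpy 2.4.6, pandas 2.3.3, statsmodels 0.14.6 and matplotlib 3.10.9 were used, and the computations were tested on simulated data.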

Additional observations from a re-analysis of the deposited data

How the results depend on the processing

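No paired analysis was possible because there is a single array on either side, which also leaves no replicate to omit. The filter on level only keeps part of the same 10 probe sets, so its counts of 0 were fixed in advance. The counts of 0 probe sets 1.5-fold and 0 probe sets 2-fold apart were the same under median centring, loess and quantile normalization. The number higher for experimenter 2 was 5, 6 and 6 under these scalings, and 2 among the 7 with a mean level that reached the median. The median difference over the probe sets turned from -0.023 to 0.011 after median centring, 0.029 after loess and 0.021 after quantile normalization. Median centring adds 0.034 to every difference by its construction, and the other scalings raised those of the 10 probe sets by 0.015 to 0.066. The sign also turned for *Edn1* under loess (0.016) and quantile normalization (0.0030), and for *Gucy1b1* by 1369097_s_at under median centring (0.028), loess (0.042) and quantile normalization (0.038). With 1 probe set per gene, the brightest, the median over the 8 genes was 0.036, with 4 higher; with the second brightest it was -0.023, with 3 higher, and with the mean over probe sets 0.0062, with 4 higher. Only *Gucy1a1* and *Gucy1b1* have a second probe set. Without detection calls, the signal over background of *Nos1*, the dimmest, is not known.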
